A study of Mus musculus with 6 samples.

Results

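The genes described here encode the machinery that brings proteins into mitochondria and that folds, trims or degrades them there. They were taken by gene symbol: every symbol that begins Timm or Tomm followed by a digit, and 16 named chaperones, peptidases, proteases and prohibitins. On probe sets annotated with 1 gene symbol, the rule found 38 genes on 85 probe sets, of 18193 genes on 34945 such probe sets. Of the rule's genes, Phb, Tomm5 and Tomm6 were found only on probe sets annotated with several symbols, and no value is given for them.

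RNA came from quadriceps, a large thigh muscle, of 3 ERRγ-transgenic and 3 wild-type mice, each hybridised to 1 Affymetrix expression array of 45101 probe sets. The transgenic mice carried ERRγ, the nuclear receptor encoded by Esrrg, under the promoter of α-skeletal actin, a gene of skeletal muscle fibres (labelled hSkeletal Actin-ERRg transgenic). Both groups were C57/BL6 males of 8 weeks and the labels name no treatment. The titles call the arrays biological replicates 1 to 3 of each genotype, and the transgenic founder line is not given in the sources used here.

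Most mitochondrial proteins are made in the cytosol and enter through the translocase of the outer membrane, TOM. Proteins with a cleavable targeting sequence then pass TIM23 of the inner membrane, pulled by the chaperone mortalin, while carrier proteins are guided by small Tim chaperones to TIM22. In the matrix a peptidase removes the targeting sequence, HSP60 and HSP10 fold the protein, and proteases remove what is damaged. ERRγ is known in muscle as an activator of genes of oxidative metabolism.

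Signals are the MAS5 intensities that the authors deposited, scaled so that the trimmed mean of each array was about 200 units. Array medians were 57.1 to 61.9 units in transgenic muscle and 52.1 to 56.3 units in wild-type muscle. The brightest Esrrg probe set read 14427, 13808 and 12697 units in transgenic muscle, against 71.6, 61 and 24.1 units in wild-type muscle, while its other 2 tested probe sets did not pass (differences 0.40 and 0.35 on the log2 scale, limma adjusted p = 0.284 and 0.443). The summed signal of 5 markers of skeletal muscle fibres was 98238 to 115188 units in transgenic and 90414 to 117165 units in wild-type muscle, and 0 of them passed the test. Endothelial markers passed as higher for 5 of 5 genes, with sums of 2653 to 2851 units in transgenic and 1305 to 1409 units in wild-type muscle. Among the leukocyte markers 1 of 5 was lower and none higher, and 0 of 5 fibroblast, 0 of 4 adipocyte and 0 of 3 brown adipocyte markers passed. The brown adipocyte sum was 124 to 713 units in transgenic and 92.4 to 4182 units in wild-type muscle, with Ucp1 at 1596 units and Cidea at 2561 units on wild-type 3. Whether these other cells take part in the member differences was not tested.

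Promoters are shown for a riser, for a gene pair that shares its start region, and for the member that holds the ERR response element. RefSeq's promoter table (GRCm38.p6, 250 bases before to 50 bases after each start site) held windows for 32 of the 38 genes, and Timm44, Hspe1 and Timm8b are printed 5′ to 3′ on the gene's strand. The Timm44 window, chr8:4275856-4276155 on the minus strand, belongs to the passing member with the smallest p and holds none of the 3 motifs searched. The Hspe1 window, chr1:55087898-55088197 on the plus strand, and the Timm8b window, chr9:50603651-50603950 on the plus strand, were chosen after the search. Capitals mark the matches.
Timm44: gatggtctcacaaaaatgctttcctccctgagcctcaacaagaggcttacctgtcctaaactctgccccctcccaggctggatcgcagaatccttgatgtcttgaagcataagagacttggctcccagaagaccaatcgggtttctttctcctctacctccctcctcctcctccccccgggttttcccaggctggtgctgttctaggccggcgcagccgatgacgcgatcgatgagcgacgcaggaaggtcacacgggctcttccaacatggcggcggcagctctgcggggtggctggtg
Hspe1: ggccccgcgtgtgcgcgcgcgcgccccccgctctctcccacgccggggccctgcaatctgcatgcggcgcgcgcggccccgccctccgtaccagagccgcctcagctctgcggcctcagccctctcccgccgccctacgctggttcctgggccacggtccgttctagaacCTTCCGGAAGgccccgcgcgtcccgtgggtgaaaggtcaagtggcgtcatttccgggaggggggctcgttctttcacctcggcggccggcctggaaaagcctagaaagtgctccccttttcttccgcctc
Timm8b: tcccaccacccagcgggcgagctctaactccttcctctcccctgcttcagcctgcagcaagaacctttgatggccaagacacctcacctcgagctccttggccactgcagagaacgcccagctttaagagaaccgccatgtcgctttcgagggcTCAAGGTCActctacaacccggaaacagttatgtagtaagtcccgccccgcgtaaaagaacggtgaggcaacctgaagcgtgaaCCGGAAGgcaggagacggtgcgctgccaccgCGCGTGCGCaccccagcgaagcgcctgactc
The ERR response element was searched as TNAAGGTCA on both strands. It lay in 1 of the 32 member genes' windows (3.13%), that of Timm8b, as TCAAGGTCA beginning 96 bases before the start site. In all promoters of the table it lay in 1.43% of 27025 genes, and in 0.93% of the 10066 tested on the arrays. Of the 10 members with a window that were higher in transgenic muscle, 0 held it, which says only that these letters are not in those 300 bases. A pair of motifs was added after that search, each read on both strands. CCGGAAG, the core bound by ETS factors, lay in 16 of the 32 member genes (50%) and in 6 of those 10 risers, against 9.93% of the genes in the table and 18.5% of those tested on the arrays. GCGCANGCG, the motif of NRF1, lay in 7 of the 32 member genes (21.9%) and in 1 of the 10 risers, against 7.03% of the genes in the table and 14.4% of those tested. In the Hspe1 window the capitals are an ETS core on each strand, overlapping by 4 bases. Hspd1 runs the other way from a start site 216 bases from that of Hspe1, so a window of Hspd1 shares 285 bases with it and holds the same match. Both genes are among the 6 risers with an ETS core, so this site is counted for each. The 16 member genes include Timm8a2, which was too dim to test.

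In transgenic muscle most of the import and quality-control genes read higher, and the rises that passed were of 0.31 to 0.78 on the log2 scale. Differences between the roles described below were not tested. Of the 36 member genes with enough signal to be tested, 12 rose, 1 fell and 23 missed the threshold, a Benjamini-Hochberg adjusted p under 0.05 from limma across all 26997 tested probe sets. Among all 12530 genes tested the same way, 7.65% rose and 5.75% fell. Each gene is read by its probe set with the highest mean signal. The median member difference was 0.23 on the log2 scale (transgenic minus wild-type, of signal plus 16 units), beside 0.03 over all tested genes. Of the 36 members 28 were positive, beside 6738 of all 12530 tested genes. Differences ran between -0.75 for Timm17b and 0.78 for Timm21. Signals of the 3 transgenic arrays all lay above those of the 3 wild-type arrays for 20 members, beside 18.6% of all tested genes, and all below for 2 members, beside 14.7%. By array, the median member stood at 0.11, 0.08 and 0.16 above its own mean over the 6 arrays in transgenic muscle, and at -0.14, -0.10 and -0.09 in wild-type muscle. In whole muscle, fewer cells of a type and less RNA per cell cannot be told apart. Tomm20l and Timm8a2, with means of 15 and 14.1 units in transgenic muscle and 9.07 and 6.83 units in wild-type muscle, were too dim to test.

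The count of risers moved with single arrays: leaving out transgenic 1, 2 or 3 gave 6, 5 or 7 risers, and leaving out wild-type 1, 2 or 3 gave 5, 5 or 10. The count over all 12530 tested genes moved too, from 958 to 613, 621 or 672 and to 578, 636 or 1008, in the same order. The 4 risers Timm44, Timm21, Clpb and Timm50 passed in all 6 of these fits, and so did the fall of Timm17b. Scaling arrays to an equal median of all probe sets shifts the median tested probe set by -0.14, and leaves 3 member risers (Timm44, Timm21 and Clpb), a median of 0.08 and, over all genes tested, 542 higher and 1229 lower in place of 958 and 721. Relative to the median of all genes the member median was 0.20 under the deposited scaling, 0.19 under that scaling and 0.27 after quantile normalization.

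**Figure D1:**
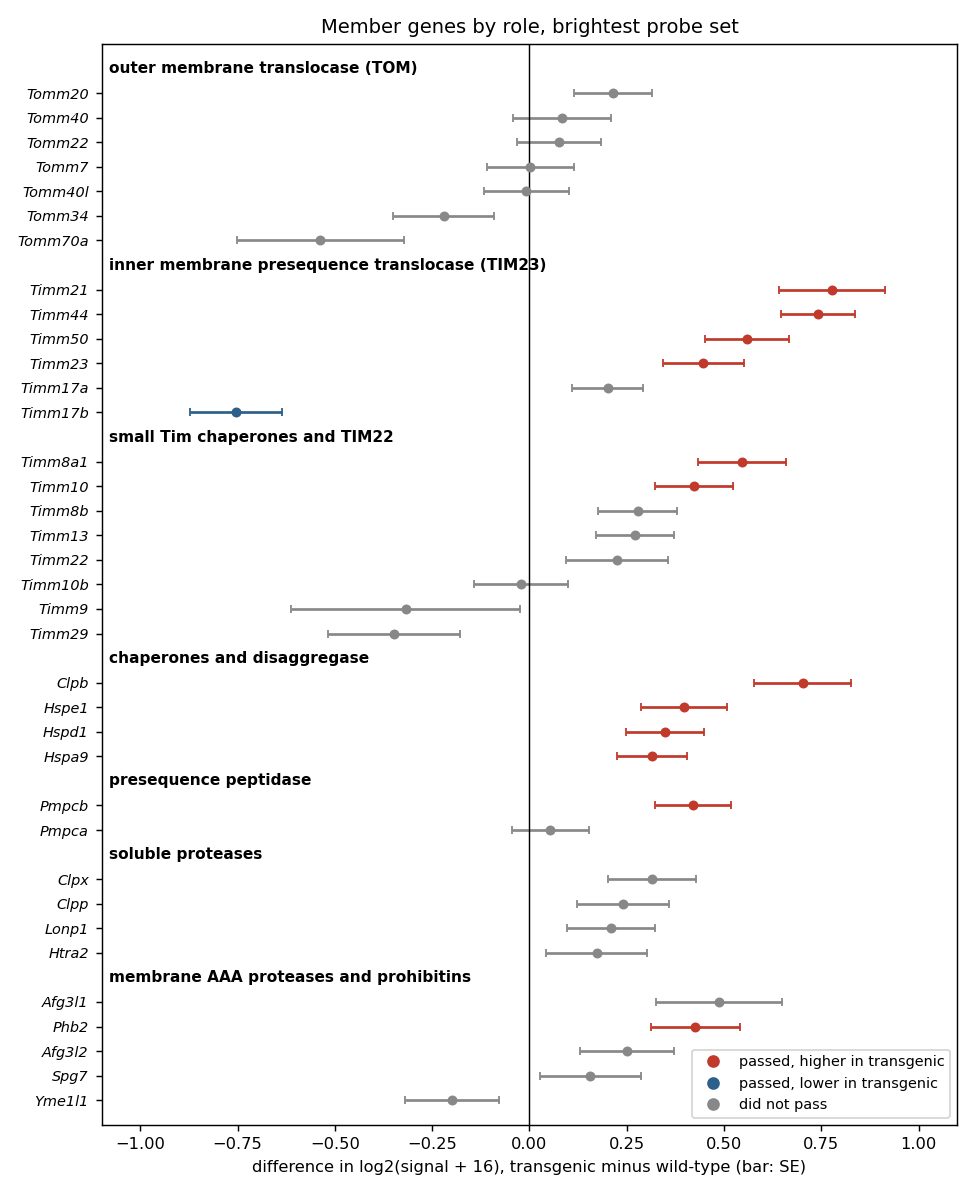
Log2 difference of signal, transgenic minus wild-type, for the 36 tested member genes, grouped by role, with bars of 1 standard error from limma. The TIM23 members and the chaperones lie to the right of 0 except Timm17b at -0.75, and the outer membrane group lies on both sides of 0, with Tomm70a at -0.54.

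TIM23 is the inner membrane channel for proteins with a targeting sequence. Of its 6 member genes, all with Timm symbols, 4 rose, 1 fell and 1 stayed short of the threshold. Their median difference was 0.50. Genes of this step with other symbols, among them Pam16, Romo1 and Dnajc15, are in the list of other import genes below. Timm44, which tethers the import motor to the channel, gave 1909, 1934 and 1794 units in transgenic muscle, against 1125, 1141 and 1083 units in wild-type muscle. The groups are well apart, and the difference was 0.74 (SE 0.09, adjusted p = 0.000778 by limma). That probe set has the suffix _x_at, which marks some probes as matching other sequences too. Its other 2 probe sets also rose, by 0.66 and 0.47, and the call of the last was lost without any 1 array (adjusted p 0.0516 to 0.123).

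Timm21, which links TIM23 to the outer membrane translocase, read 888, 1202 and 1136 units in transgenic muscle, against 563, 608 and 681 units in wild-type muscle. Every transgenic array was higher, at 1.74 times the wild-type mean and a difference of 0.78 (SE 0.14, limma adjusted p = 0.00463). Timm50, the receptor that takes up proteins leaving TOM, read 708, 750.2 and 787 units in transgenic muscle, against 479, 516 and 514 units in wild-type muscle. That is a difference of 0.56 (SE 0.11, limma adjusted p = 0.008). A dimmer Timm50 probe set read 138, 116 and 148 units in transgenic and 164, 122 and 144 units in wild-type muscle, which overlap.

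The channel-forming subunit Timm23 read 7291, 8838 and 7264 units in transgenic muscle, against 6118, 5579.9 and 5399.8 units in wild-type muscle. The groups did not overlap and the difference was 0.45 (SE 0.10, limma adjusted p = 0.0203), a call that was lost without transgenic 2 or without wild-type 2, where the adjusted p reached 0.0781.

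Timm17a and Timm17b are alternative partners of Timm23, of which Timm17b fell and Timm17a did not pass. Timm17b read 391, 437 and 464 units in transgenic muscle, against 753, 774 and 682 units in wild-type muscle. It was the one member to fall, to 0.585 times the wild-type mean (log2 difference -0.75, SE 0.12, limma adjusted p = 0.00243). This is again an _x_at probe set. The other Timm17b probe set read 324, 309 and 341 units in transgenic muscle, against 331, 328 and 376 units in wild-type muscle, which overlap (difference -0.08, limma adjusted p = 0.73). Timm17a had means of 2897 ± 158 units in transgenic and 2515 ± 36.1 units in wild-type muscle (SD, n = 3 each). Its groups did not overlap, yet the difference of 0.20 did not pass (limma adjusted p = 0.195), and the difference between Timm17a and Timm17b was not tested.

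The chaperones and the disaggregase all passed as higher, 4 of 4, with a median difference of 0.37. Only Clpb kept its call with no filter, with either median scaling, with no intensity trend and without any 1 array, except that Hspe1 also passed without wild-type 3. Clpb, a disaggregase that lies in the intermembrane space, read 837, 892 and 863 units in transgenic muscle, against 450.0, 539 and 594 units in wild-type muscle. Its difference was 0.70 (SE 0.12, limma adjusted p = 0.00486), and a second probe set gave 0.72 (limma adjusted p = 0.00917).

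Hspa9, the mortalin of the import motor, read 4158, 4295 and 4654 units in transgenic muscle, against 3568, 3502 and 3449 units in wild-type muscle. Hspd1 (HSP60) read 3911, 3705 and 4298 units in transgenic muscle, against 3024, 3388 and 2935 units in wild-type muscle. Hspe1 (HSP10), the lid of the HSP60 folding chamber, read 2244, 2627 and 2138 units in transgenic muscle, against 1734, 1658 and 1913 units in wild-type muscle. In each of the 3 genes the groups were apart, by 1.25, 1.27 and 1.32 times the wild-type mean. Differences were 0.31 for Hspa9 (SE 0.09, limma adjusted p = 0.0463), 0.35 for Hspd1 (SE 0.10, limma adjusted p = 0.049) and 0.40 for Hspe1 (SE 0.11, limma adjusted p = 0.0434). These calls are narrow. Leaving out any 1 array ended those of Hspa9 (adjusted p 0.0605 to 0.138) and Hspd1 (0.058 to 0.15), and Hspe1 passed only without wild-type 3 (0.0261 to 0.154).

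The probe sets of Hspa9 and of Hspe1 gave differences of unequal size, which were not tested against each other. A dimmer Hspa9 probe set read 753, 719 and 594 units in transgenic muscle, against 377, 361 and 497 units in wild-type muscle (difference 0.73, limma adjusted p = 0.0109, lost at up to 0.0555 without transgenic 1 or wild-type 1), while the remaining 2 tested were both at 0.27 and did not pass. The second Hspe1 probe set read 637, 485 and 569.5 units in transgenic muscle, against 611, 566 and 533 units in wild-type muscle, which overlap (difference -0.02, limma adjusted p = 0.94). The Hspe1 probe set that passed has the suffix _s_at, for probes that match several transcripts.

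**Figure D2:**
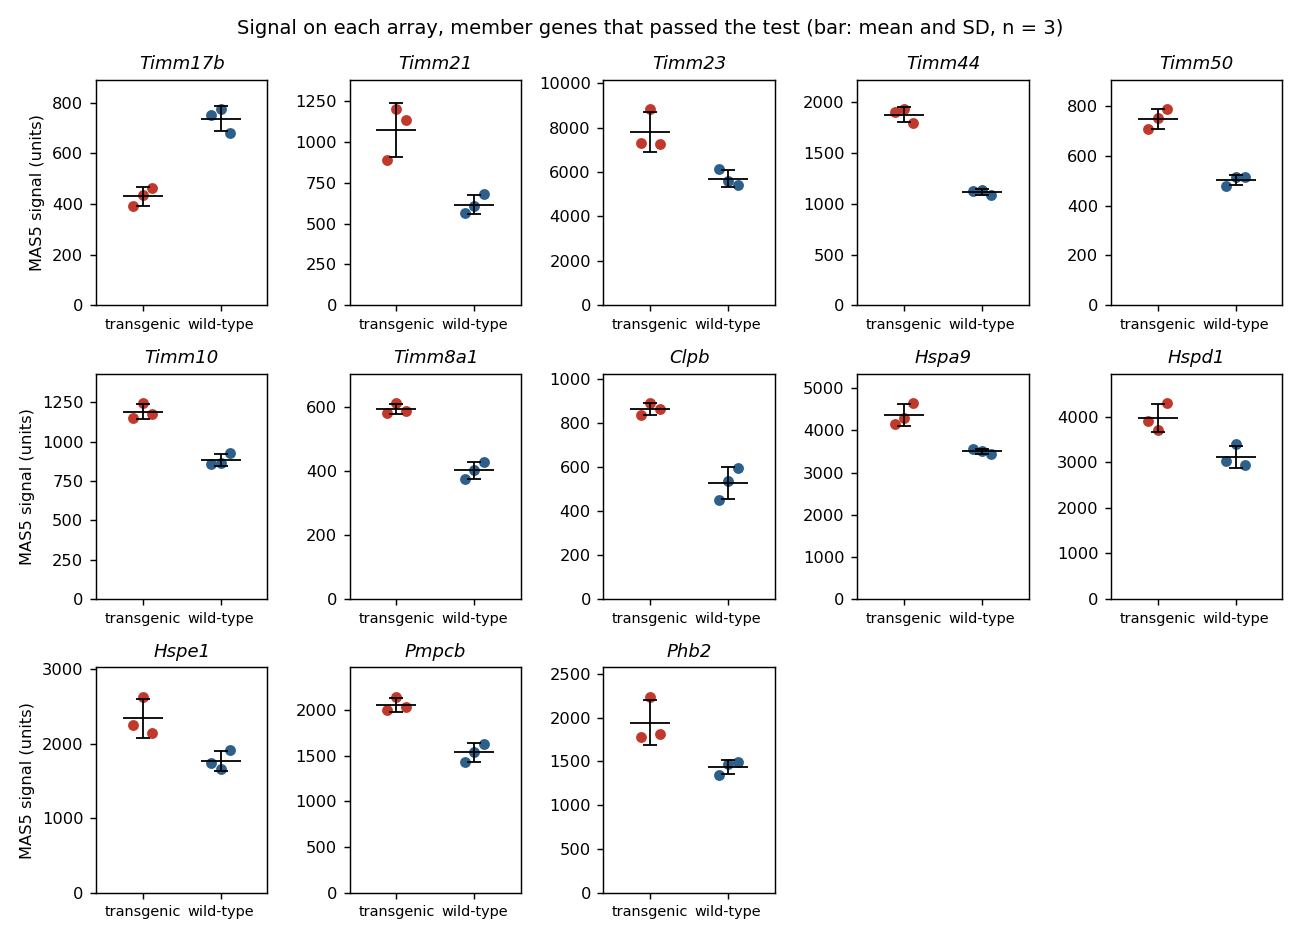
Signal in units on each of the 6 arrays for the 13 member genes that passed, 1 panel a gene with its axis from 0: dots are arrays, bars the mean ± SD (n = 3), transgenic left of wild-type. In each panel the groups do not overlap, and the transgenic arrays are the lower ones only for Timm17b.

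Of the small Tim chaperones and TIM22, 2 of the 8 tested rose and 6 missed the threshold, around a median difference of 0.25. Timm8a1, which ferries precursors across the intermembrane space together with Timm13, read 583, 614 and 590.3 units in transgenic muscle, against 376, 405 and 429 units in wild-type muscle. The transgenic arrays were 1.48 times the wild-type mean (difference 0.55, SE 0.11, limma adjusted p = 0.011), and the second probe set was similar at 0.52 (limma adjusted p = 0.0372). Without wild-type 1 the adjusted p of the brighter probe set was 0.0595, and the dimmer one passed in 0 of the 6 fits without 1 array.

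Timm10, which with Timm9 escorts carrier proteins, read 1151, 1246 and 1176 units in transgenic muscle, against 859.7, 866 and 928 units in wild-type muscle. Its difference was 0.42 (SE 0.10, limma adjusted p = 0.0213), and of the 6 fits without 1 array it passed only in that without wild-type 3 (0.0182 to 0.0893). Timm9 itself read 166, 69.6 and 201 units in transgenic muscle, against 179.7, 149.6 and 187 units in wild-type muscle. The transgenic arrays spread on both sides of the wild-type ones, at a difference of -0.32 (SE 0.30, limma adjusted p = 0.548).

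Timm13, the brightest of this group, read 1369, 1591 and 1522 units in transgenic muscle, against 1225, 1201 and 1273 units in wild-type muscle. Timm8b, whose promoter window holds the ERR response element printed above, read 1378, 1387 and 1214 units in transgenic muscle, against 1084, 1122 and 1062 units in wild-type muscle. In both genes every transgenic array was higher, and neither passed, with differences of 0.27 for Timm13 (SE 0.10, limma adjusted p = 0.117) and 0.28 for Timm8b (SE 0.10, limma adjusted p = 0.111).

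Timm22, the insertase channel, had means of 765 ± 122 units in transgenic and 647 ± 19.2 units in wild-type muscle (SD, n = 3 each), which overlap. Its partner Timm29 read 1278, 1036 and 1098 units in transgenic muscle, against 1435, 1880.0 and 1122 units in wild-type muscle. The wild-type spread is wide, and the difference of -0.35 (limma adjusted p = 0.228) passed only without wild-type 3, at 0.0349. The second Timm29 probe set gave 0.03. Timm10b read 723, 563 and 679.9 units in transgenic muscle, against 644, 671 and 672 units in wild-type muscle, which overlap. Its 4 probe sets ran between -0.09 and 0.24 and none passed.

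TOM is the entry gate of the outer membrane, and Tomm34 is counted beside its genes by its symbol. Of the 7 genes tested, 0 passed by their brightest probe set. Their median difference was 0.00, beside 0.03 over all tested genes. With arrays scaled to an equal median of all probe sets it was -0.15, beside -0.11 over all tested genes. The brightest of the group, the receptor Tomm20, read 5956, 4934 and 5976 units in transgenic muscle, against 4849.5, 4806 and 4815 units in wild-type muscle. The transgenic arrays were all higher, with transgenic 2 close to the wild-type values, and the difference of 0.21 did not pass (SE 0.10, limma adjusted p = 0.206). Of the 5 dimmer Tomm20 probe sets, 1 passed. It read 348, 323 and 296 units in transgenic muscle, against 219.5, 221 and 234 units in wild-type muscle (difference 0.49, limma adjusted p = 0.0339), and of the fits without 1 array it passed only without transgenic 3 and without wild-type 3. A further Tomm20 probe set lay at -0.16.

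Tomm22, the central receptor, differed most between its probe sets. The brighter read 754, 711 and 772 units in transgenic muscle, against 676, 762 and 684 units in wild-type muscle, which overlap (difference 0.08, limma adjusted p = 0.711). The dimmer, an _x_at probe set, read 700.1, 676 and 795 units in transgenic muscle, against 353, 348 and 347 units in wild-type muscle. That is 2.07 times the wild-type mean, the largest member difference on any probe set (1.01, SE 0.12, limma adjusted p = 0.000405), and it passed under every alternative run.

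The receptor Tomm70a, which takes up carrier proteins, read 839.5, 513 and 1067 units in transgenic muscle, against 1058, 1109 and 1223 units in wild-type muscle. The groups overlap by a narrow margin and the difference of -0.54 did not pass (SE 0.21, limma adjusted p = 0.142), although without transgenic 3 the adjusted p was 0.041. All 4 tested Tomm70a probe sets were negative, between -0.54 and -0.18.

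The channel Tomm40 had means of 401 ± 21.1 units in transgenic and 379 ± 38.6 units in wild-type muscle (SD, n = 3 each), a difference of 0.08. Its paralog Tomm40l read 516, 513 and 519 units in transgenic muscle, against 492, 549 and 517 units in wild-type muscle, which overlap, while its dimmer probe set read 171, 206 and 202 units in transgenic muscle, against 139, 126 and 153 units in wild-type muscle, at 0.43 (limma adjusted p = 0.0991). The small subunit Tomm7 read 967, 1058 and 1189.6 units in transgenic muscle, against 1106, 1084 and 1012 units in wild-type muscle, and its 3 tested probe sets lay between -0.23 and 0.15. Tomm34, a cytosolic cochaperone of import, read 291, 253 and 308 units in transgenic muscle, against 346, 316 and 338 units in wild-type muscle. It was lower on every transgenic array, without passing (-0.22, limma adjusted p = 0.32).

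The peptidase that removes the targeting sequence has a pair of subunits, and 1 of them rose. Pmpcb, the catalytic subunit, read 1993, 2142 and 2035 units in transgenic muscle, against 1432, 1538 and 1631 units in wild-type muscle. The difference was 0.42 (SE 0.10, limma adjusted p = 0.019), with 0.49 on its second probe set, and of the 6 fits without 1 array it passed only without transgenic 3 and without wild-type 3 (0.0124 to 0.0894). The second Pmpcb probe set has the suffix _x_at. Pmpca, the substrate-binding subunit, read 1669, 1729.5 and 1716 units in transgenic muscle, against 1570.4, 1788 and 1575 units in wild-type muscle. These overlap (0.05, limma adjusted p = 0.779), and whether Pmpca and Pmpcb differ was not tested.

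Among the soluble proteases, Clpp, Clpx, Lonp1 and Htra2, 0 of 4 passed by the brightest probe set, and all 4 were positive, between 0.17 and 0.31. Clpx, the unfoldase that feeds the peptidase Clpp, read 892, 976 and 1067 units in transgenic muscle, against 730.0, 839 and 780.4 units in wild-type muscle. All transgenic arrays were higher (0.31, limma adjusted p = 0.105), and the dimmer Clpx probe set, at 0.73, missed the threshold at 0.0557. Clpp had means of 729 ± 56.1 units in transgenic and 615 ± 58.9 units in wild-type muscle (SD, n = 3 each), and the matrix protease Lonp1 had 813 ± 29.5 units in transgenic and 703 ± 68.9 units in wild-type muscle.

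Htra2, a protease of the intermembrane space, read 289.7, 270.2 and 293 units in transgenic muscle, against 230.4, 247 and 275 units in wild-type muscle. The groups overlap (0.17, limma adjusted p = 0.448). A dimmer Htra2 probe set read 160.3, 225 and 210.1 units in transgenic muscle, against 101.1, 135 and 95.9 units in wild-type muscle, and passed (0.76, SE 0.18, limma adjusted p = 0.0237), a call that held in 2 of the 6 fits without 1 array, those without transgenic 1 and without wild-type 2. Both Htra2 probe sets have the suffix _s_at.

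Of the AAA proteases of the inner membrane and their prohibitin scaffold, 1 of 5 rose and 4 missed the threshold, around a median of 0.25. Phb2, which with its partner Phb forms ring-shaped scaffolds, read 1783, 2238 and 1810.0 units in transgenic muscle, against 1339, 1474 and 1494 units in wild-type muscle. The difference was 0.43 (SE 0.11, limma adjusted p = 0.0377). It passed only without wild-type 3 among the fits without 1 array, while 2 further Phb2 probe sets also rose, by 0.49 (limma adjusted p = 0.011) and 0.56 (limma adjusted p = 0.0122). Both of these further probe sets have the suffix _x_at. The dimmest read 117, 72.2 and 68.4 units in transgenic muscle, against 44.6, 55.8 and 63.4 units in wild-type muscle (0.51, limma adjusted p = 0.231).

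Afg3l1, Afg3l2 and Spg7, subunits of the protease that faces the matrix, were positive at 0.49, 0.25 and 0.16, and none passed (limma adjusted p = 0.0816, 0.226 and 0.497). Yme1l1, the protease that faces the intermembrane space, read 531, 520.4 and 630.1 units in transgenic muscle, against 666, 594 and 673 units in wild-type muscle. Those overlap, at -0.20 (limma adjusted p = 0.339). A dimmer Yme1l1 probe set read 372, 380.5 and 411 units in transgenic muscle, against 486, 504 and 557 units in wild-type muscle. It was lower on every transgenic array (-0.40, limma adjusted p = 0.0548), and the remaining 2 probe sets were at 0.04 and 0.42.

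Counted by probe set, 78 of the 85 were tested, among them 23 risers, 1 that fell and 54 that missed the threshold, around a median of 0.24. Over all 26997 probe sets, 6.37% rose and 5.16% fell. Of the 25 member genes with 2 or more tested probe sets, 17 had the same call on all of them, 8 had calls that differ, and 0 had calls in both directions. The 8 are Hspa9, Hspe1, Htra2, Phb2, Timm17b, Timm50, Tomm20 and Tomm22. In Htra2, Tomm20 and Tomm22 the passing probe set is not the brightest, so 15 genes had at least 1 probe set that rose, against 12 by the brightest alone.

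**Figure D3:**
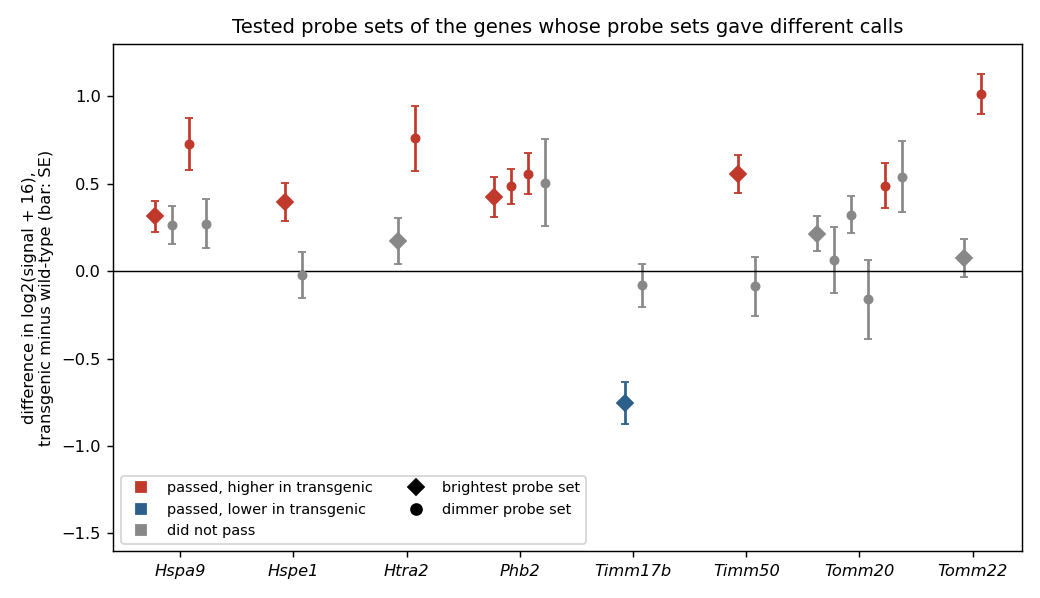
Log2 difference of signal, transgenic minus wild-type, with bars of 1 standard error, for each tested probe set of the 8 member genes whose probe sets differ in their call; diamonds mark the brightest probe set. Tomm22 spans 0.08 to 1.01 and Timm17b spans -0.75 to -0.08.

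The other genes of mitochondrial import and quality control, a list of 28 that the rule does not take, had a like share of risers: 9 rose and 1 fell, leaving 18 that did not pass, around a median of 0.31. Mtx2 (metaxin 2), of the outer membrane sorting machinery, read 893, 1012 and 1015 units in transgenic muscle, against 498, 550.5 and 631 units in wild-type muscle (0.78, SE 0.12, limma adjusted p = 0.00236). Grpel1, the nucleotide exchange factor of mortalin, read 1581, 1739.9 and 1711 units in transgenic muscle, against 1119, 984 and 1078 units in wild-type muscle (0.65, SE 0.10, limma adjusted p = 0.00234). Both sets of arrays are apart, and the Mtx2 probe set has the suffix _s_at. The other risers were Bcs1l, Dnaja3, Ghitm, Oma1, Parl, Samm50 and Stoml2. Of the 6 fits without 1 array, Stoml2 passed in 0, Samm50 in 1, and Bcs1l, Ghitm and Parl in 2. Dnaja3 and Oma1 passed in 4. A dimmer Dnaja3 probe set did not pass (0.16, limma adjusted p = 0.496). Dimmer probe sets of Ghitm and Samm50 did, at 0.39 and 0.49 (limma adjusted p = 0.0188 and 0.00768). Among the 18 genes that did not pass, Pam16, Romo1 and Dnajc15 were at 0.09, 0.10 and 0.28 (limma adjusted p = 0.62, 0.683 and 0.109). Gfer, the oxidase that works with Chchd4 in the intermembrane space, fell (448 ± 52.3 units in transgenic and 624 ± 30.3 units in wild-type muscle, SD, n = 3 each, difference -0.47, limma adjusted p = 0.0343), a call that held only without transgenic 3 and without wild-type 3 among the fits without 1 array. Its dimmer probe set was also lower on every transgenic array but did not pass (-0.41, limma adjusted p = 0.0997).

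Several members are also known targets of the integrated and mitochondrial stress responses, so a list of 18 such genes was read beside them. The 17 that were tested gave 2 risers (11.8%), 2 that fell (11.8%) and 13 short of the threshold. Among all tested genes 7.65% rose and 5.75% fell, and whether these shares differ was not tested. The list median was 0.01. With arrays scaled to an equal median of all probe sets it was -0.11, beside -0.11 over all tested genes. Nupr1, a stress-induced nuclear protein, read 185, 165 and 181 units in transgenic muscle, against 276, 268 and 463 units in wild-type muscle (-0.82, limma adjusted p = 0.0225), a call lost without any 1 of the transgenic arrays. Its dimmer probe set was also lower on every transgenic array but did not pass (-0.60, limma adjusted p = 0.076). Shmt2, the mitochondrial serine hydroxymethyltransferase, read 406, 415 and 399 units in transgenic muscle, against 254, 255 and 246 units in wild-type muscle (0.66, limma adjusted p = 0.00491). That probe set has the suffix _x_at, as has a dimmer Shmt2 probe set that also passed (0.59, limma adjusted p = 0.0206). The remaining Shmt2 probe sets, at 0.22 and 0.69, did not pass (limma adjusted p = 0.513 and 0.134). The transcription factor Ddit3 also rose (0.56, limma adjusted p = 0.0471) and Ppp1r15a, a phosphatase subunit, also fell (-0.51, limma adjusted p = 0.0362), and each held in 1 of the 6 fits without 1 array, that without wild-type 3. A dimmer Ddit3 probe set overlapped between the groups and did not pass (0.13, limma adjusted p = 0.85). The transcription factors Atf4 and Atf5 were at 0.01 and -0.01 and did not pass. The largest difference of the list was that of Chac1, at -1.20, where the groups overlap (limma adjusted p = 0.0538). Psat1 was lower on every transgenic array (-0.65, limma adjusted p = 0.107), and neither passed. Of the 17 genes, 10 were positive and 7 negative.

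Set beside the parts of the oxidative machinery that are made from imported proteins, the members had a lower share of risers than the respiratory chain and ATP synthase and a share near that of the mitochondrial ribosome. Among respiratory chain and ATP synthase genes, 57 of 82 rose and 0 fell, with a median of 0.41. Among mitochondrial ribosomal protein genes, 27 of 76 rose and 1 fell, with a median of 0.28. In percent, risers made up 33.3% of the members, 69.5% of the respiratory chain genes and 35.5% of the ribosomal protein genes. The gap moved with the processing. With no intensity trend, 5 of 36 members, 16 of 82 respiratory chain genes and 11 of 76 ribosomal protein genes rose, beside 498 of all 12530 tested genes. After quantile normalization the medians of these lists, in that order, were 0.27, 0.30 and 0.30. The differences between these lists were not tested.

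**Figure D4:**
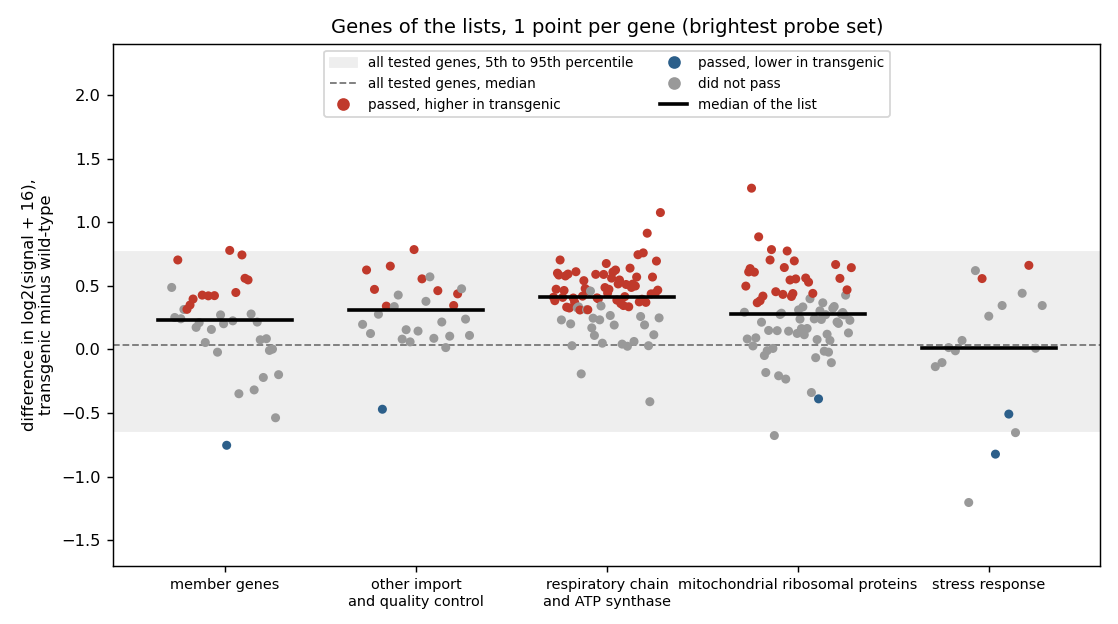
Log2 difference of signal, transgenic minus wild-type, with 1 dot a gene by its brightest probe set, for the members and 4 other lists; the grey band is the 5th to 95th percentile of all tested genes (-0.64 to 0.76) and the dashed line their median (0.03). Under the deposited scaling respiratory chain genes have the highest median, 0.41, and stress-response genes the lowest, 0.01. After quantile normalization the other import and quality-control genes have the highest, 0.32, beside 0.30 for the respiratory chain.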

How the data were processed

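Total RNA from quadriceps of 3 transgenic and 3 wild-type mice was labelled with biotin, per the labels' protocols, and each hybridised to 1 array. The authors deposited 1 table of intensity values (signals on a linear scale), made with MAS5 per the submitters' processing notes; no detection calls or raw scans entered the work. Depth has no counterpart on arrays: the number of arrays limits the precision. Gene symbols are those of the platform annotation, and 932 probe sets with several symbols were not used for any gene.

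Probe sets with a mean signal above the 40th percentile of all 45101 (37.8 units, 64 controls left out) were tested, 26997 in all. A linear model with an intensity trend (R 4.3.3 with limma 3.58.1, functions lmFit and eBayes, two-sided tests) was fitted to log2(signal + 16) with genotype as its one term, and p-values were adjusted over all tested probe sets by Benjamini-Hochberg. The constant of 16 understates the change of dim genes. A gene was read by its brightest probe set with 1 symbol. Counting and promoter searches used Python 3.11.15 and figures matplotlib 3.10.9. The fit was tested on simulated data.

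Members and lists were chosen with earlier results of these data known. Values on each array are given for members that passed, the brightest member of each role and members whose probe sets disagree; Timm8b, Tomm34, Tomm70a and Timm9 were named after their values were seen. The text names 2 passing genes of each further list with the largest difference. Gfer, the other risers, Pam16, Romo1, Dnajc15, Ddit3, Ppp1r15a, Atf4, Atf5, Chac1 and Psat1 were named after their values were seen. For the respiratory chain and ribosomal lists only counts are given. Motif letters other than TNAAGGTCA were chosen after that search. Proteins were not analysed here.

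Alternatives were other constants (1 and 64), no filter and a stricter one (60th percentile), other scalings, no intensity trend, robust eBayes, array weights, the replicate number as a block, other choices of probe set, and leaving out each array.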

Additional observations from a re-analysis of the deposited data

How the results depend on the processing

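With 3 arrays per genotype the limit is the number of arrays; detection calls were not used, and dim probe sets carry most uncertainty. Of the 24 member probe sets that passed, 7 passed under all 17 alternatives, 17 lost their call under at least 1, and 0 changed sign. Median scaling over tested probe sets, and leaving out _x_at and _s_at probe sets, were chosen after seeing the data. Whether the replicate numbers pair the arrays cannot be settled here. Deviations of same-numbered arrays correlated at 0.07, -0.08 and -0.02. Transgenic 1 correlated best with its own number, and transgenic 2 and 3 with another number. Each deviation is from a mean of only 3 arrays, so these correlations depend on each other. With the replicate number as a block, 9 members rose and 1 fell, stress-response genes higher were 1, and the falls among other import genes and ribosomal proteins were 0 each.

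Member genes that rose were 7 with no filter, 3 with median scaling, 5 with no intensity trend, and 5 to 10 without 1 array; those that fell were 0 with the dimmest probe set or without _x_at and _s_at probe sets, and 1 to 2 without 1 array. The member median was 0.083 with median scaling, 0.17 with that over tested probe sets, 0.27 with quantile normalization and 0.28 with the dimmest probe set. Member probe sets higher were 7 with median scaling, 8 with no trend, 15 with scaling over tested probe sets and 8 to 18 without 1 array. Those lower were 2 with the stricter filter and with both median scalings, and 1 to 3 without 1 array.

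Other import genes higher were 2 with median scaling, 2 with no trend, 5 with scaling over tested probe sets and 3 to 9 without 1 array. Those lower were 0 with no trend or the dimmest probe set and 0 to 1 without 1 array, and the median was 0.16, 0.25 and 0.21 with median scaling, scaling over tested probe sets and the dimmest probe set. Stress-response genes higher were 1 with no filter, either median scaling, quantile normalization, no trend, the mean over probe sets or no _x_at and _s_at probe sets, 0 with the dimmest probe set, and 1 to 2 without 1 array. Those lower were 1 with no filter, 0 with no trend and 0 to 3 without 1 array. Their median was -0.11 with median scaling, -0.038 over tested probe sets, -0.14 with the dimmest probe set, -0.13 with the mean over probe sets and -0.086 to 0.15 without 1 array. The median of all tested genes was -0.11 with median scaling and -0.022 with that over tested probe sets.

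Respiratory chain genes higher were 30 with no filter, 25 with median scaling, 16 with no trend and 35 to 53 without 1 array. Those lower were 1 with the stricter filter, both median scalings, array weights and the mean over probe sets. Their median was 0.26 with median scaling, 0.30 with quantile normalization and 0.35 with scaling over tested probe sets. Ribosomal protein genes higher were 11 with median scaling, 11 with no trend, 17 with the dimmest probe set and 14 to 24 without 1 array. Those lower were 2 with both median scalings, array weights and the mean over probe sets, 0 with quantile normalization or no trend, and 0 to 1 without 1 array. Their median was 0.26 with a constant of 64, 0.13 with median scaling, 0.30 with quantile normalization, 0.22 with scaling over tested probe sets, 0.23 with the dimmest probe set and 0.26 to 0.31 without 1 array. All probe sets higher and lower were 972 and 2390 with median scaling, 950 and 633 with no trend, and 1028 to 1783 and 677 to 1518 without 1 array.

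The sign was followed for the member probe sets that were the brightest of their gene, that passed, whose groups did not overlap, or whose gene had calls that differ, and not for the others. None of those that turned had passed. With median scaling they were the second brightest of Tomm20 (-0.089), the brighter of Tomm22 (-0.074), Tomm40 (-0.063), the brightest of Tomm7 (-0.15), and the brighter and dimmer of Pmpca (-0.098 and -0.024). With scaling over tested probe sets they were the same Tomm7 (-0.058) and the brighter Pmpca (-0.0065). With quantile normalization they were the brighter Tomm40l (0.016), the brightest Timm10b (0.0022) and the dimmer Hspe1 (0.0090), and with array weights Tomm7 (-0.020) and Timm10b (0.0071). Without 1 array the ranges were -0.11 to 0.080 for the dimmer Hspe1, -0.095 to 0.081 for Timm10b, -0.18 to 0.0044 for the dimmer Timm50, -0.59 to 0.087 for the brighter Timm9, -0.44 to 0.048 for the fourth brightest Tomm20, -0.10 to 0.33 for its second brightest, -0.045 to 0.032 for Tomm40l and -0.074 to 0.073 for Tomm7. The causes were not tested.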
